A study of Homo sapiens with 30 samples.

Results

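The regions described here are stretches of open chromatin that appeared in the ATAC-seq peak lists of 1 treatment and in none of the other. ATAC-seq uses a transposase that cuts accessible DNA, and a peak marks a stretch cut more often than its surroundings. The cells were DTMYC G401 cells, a line from a malignant rhabdoid tumor of the kidney, treated for 24 h with 500 nM dTAG47 (3 libraries) or with the vehicle DMSO (3 libraries). Peaks of the 6 lists that shared at least 1 base were merged, and a region was kept when at least 2 libraries of 1 treatment and no library of the other had a peak in it. Of 77315 merged regions, 1234 had peaks in dTAG47 libraries alone and 2369 in DMSO libraries alone, 3603 in all. These are called dTAG47-only and DMSO-only regions. They made up 1.6% and 3.06% of the merged regions, and they were chosen by the presence of peak calls, so peak calls and scores are given as a description, with no test.

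In both groups the DTMYC cells carry a lentiviral MYC with an HA-FKBP12F36V tag at its N terminus, and the endogenous MYC was deleted with CRISPR-Cas9. Whether the line is 1 clone or a pool is not stated in the labels. The dTAG47-treated and DMSO-treated DTMYC cells were also measured by RNA-seq at 24 h (3 libraries each), by PRO-seq at 4 h (2 each) and by MYC ChIP-seq at 4 h (3 in dTAG47 and 2 in DMSO). RNA-seq was also made of parental G401 cells, which lack the tagged MYC, in 500 nM dTAG47 and in DMSO (3 libraries each). The labels do not say that replicates were separate cultures, so p-values measure the spread between these libraries, which may be technical.

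MYC is a transcription factor that binds, together with MAX, E-box sequences near the start sites of many active genes. dTAG47 is a degrader molecule that binds the FKBP12F36V tag and brings the tagged protein to the cereblon ubiquitin ligase. Rhabdoid tumors lack a core subunit of SWI/SNF, a complex that moves nucleosomes and keeps many enhancers accessible, and MYC binds SWI/SNF subunits. The question set by the design is whether loss of MYC changes which chromatin is open.

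Single regions show what the one-treatment class holds. The central 200 bases of 4 dTAG47-only and 4 DMSO-only regions are printed below in GRCh37 (the same build as hg19), plus strand. The KIAA0825 and LRP1B regions had the highest scores among dTAG47-only regions found in 2 and in all 3 libraries. Those near TRIO and SRC overlapped MYC peaks. Of the DMSO-only regions, the first had the highest scores. That labelled near LYPLAL1, 144020 bases from its start, had the highest among those in all 3 libraries with no multi-copy sequence. KLRG2 and TBC1D30, named at the others, had lower mRNA in dTAG47. In the first sequence capitals mark bases within 32-base stretches that occur identically in the mitochondrial genome. In the others capitals mark motif matches on either strand, which are E-box (CACGTG), GC-box (GGGCGG), SOX (ACAAAG), TEAD (GGAATG), RUNX (TGTGGT) and ETS (CCGGAA).
dTAG47-only, intron of KIAA0825, chr5:93905065-93905264: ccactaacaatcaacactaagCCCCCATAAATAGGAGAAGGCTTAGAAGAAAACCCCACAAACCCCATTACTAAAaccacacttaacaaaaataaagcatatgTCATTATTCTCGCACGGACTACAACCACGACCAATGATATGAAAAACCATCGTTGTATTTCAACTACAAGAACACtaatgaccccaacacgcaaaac
dTAG47-only, intron of LRP1B, chr2:141344055-141344254: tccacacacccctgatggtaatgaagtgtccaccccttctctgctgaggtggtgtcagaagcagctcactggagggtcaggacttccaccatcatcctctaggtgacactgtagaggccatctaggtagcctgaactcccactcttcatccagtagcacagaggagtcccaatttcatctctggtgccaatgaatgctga
dTAG47-only, intron of TRIO, chr5:14264816-14265015: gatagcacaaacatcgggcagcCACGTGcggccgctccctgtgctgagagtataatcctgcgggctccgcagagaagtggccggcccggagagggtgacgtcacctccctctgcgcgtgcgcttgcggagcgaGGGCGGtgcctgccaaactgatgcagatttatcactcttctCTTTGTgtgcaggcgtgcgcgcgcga
dTAG47-only, near SRC, chr20:36034868-36035067: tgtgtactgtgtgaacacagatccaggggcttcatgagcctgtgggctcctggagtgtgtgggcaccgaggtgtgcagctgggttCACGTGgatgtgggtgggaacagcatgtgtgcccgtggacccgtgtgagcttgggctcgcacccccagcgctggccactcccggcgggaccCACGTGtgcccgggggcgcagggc
DMSO-only, satellite-like repeat on chromosome 2, chr2:89875462-89875661: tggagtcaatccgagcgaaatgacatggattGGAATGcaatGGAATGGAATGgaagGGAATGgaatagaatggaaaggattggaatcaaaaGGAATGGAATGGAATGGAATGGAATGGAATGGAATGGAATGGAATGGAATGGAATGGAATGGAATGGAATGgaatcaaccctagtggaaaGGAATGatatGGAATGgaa
DMSO-only, near LYPLAL1, chr1:219491140-219491339: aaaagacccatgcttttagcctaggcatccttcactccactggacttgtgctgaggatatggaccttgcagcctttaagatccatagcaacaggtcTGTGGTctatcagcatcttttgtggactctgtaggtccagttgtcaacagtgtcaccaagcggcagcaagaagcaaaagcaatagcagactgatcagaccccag
DMSO-only, intron of KLRG2, chr7:139142048-139142247: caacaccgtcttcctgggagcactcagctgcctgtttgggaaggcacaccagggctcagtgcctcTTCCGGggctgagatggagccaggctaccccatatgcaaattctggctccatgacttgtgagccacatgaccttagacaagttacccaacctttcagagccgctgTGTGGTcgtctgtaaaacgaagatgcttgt
DMSO-only, intron of TBC1D30, chr12:65195720-65195919: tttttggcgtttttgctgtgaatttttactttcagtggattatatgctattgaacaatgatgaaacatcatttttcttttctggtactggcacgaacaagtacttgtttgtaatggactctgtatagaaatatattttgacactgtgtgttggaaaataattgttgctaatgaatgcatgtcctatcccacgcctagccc

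The 6 peak lists differed in length within each treatment. The dTAG47 libraries 1, 2 and 3 held 36313, 29042 and 41663 peaks, and the DMSO libraries 1, 2 and 3 held 50983, 37230 and 28429. The treatments overlapped in this number, and the read depth behind the lists is unknown. RNA-seq totals were 27854207 to 54633745 counts per library and PRO-seq gene body totals 18209879 to 23256313. Vimentin, a mesenchymal marker of rhabdoid cells, had 683, 692 and 678 CPM (counts scaled to a common library total) in dTAG47 and 616, 626 and 624 CPM in DMSO. Of 5 haematopoietic markers, CD3E and PTPRC were at 0 in both groups, and their sum was 0.0892 to 0.319 CPM in dTAG47 and 0.0684 to 0.182 CPM in DMSO. The 5 neuronal and 3 endothelial markers summed to at most 0.745 and 0.071 CPM in dTAG47 and to at most 1.09 and 0.205 CPM in DMSO. The 7 kidney epithelial markers, which include the keratins KRT8 and KRT18, summed to 5829 to 6578 CPM in dTAG47 and 5124 to 5745 CPM in DMSO, with UMOD at 0 in both. MYC mRNA is no check of the degrader, which acts on the protein. It had a log2 change of 0.05 ± 0.08 (SE), with adjusted p = 0.801 in edgeR's quasi-likelihood test.

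Most one-treatment regions were seen in 2 of 3 libraries and few in all 3. Of the dTAG47-only regions, 1105 had a peak in exactly 2 libraries and 129 in all 3. Of the DMSO-only regions, 2140 had a peak in exactly 2 and 229 in all 3. Among the dTAG47-only regions, 942 held a peak of dTAG47 library 1, 625 of library 2 and 1030 of library 3. Among the DMSO-only regions, 2195 held a peak of DMSO library 1, 1746 of library 2 and 1026 of library 3. Within each treatment the library with the fewest peaks was also in the fewest members.

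Pairs of libraries from different treatments also shared regions. Of all regions with a peak in exactly 2 libraries, 1105 (12.6%) came from the 3 dTAG47 pairs, 2140 (24.4%) from the 3 DMSO pairs and 5515 (63.0%) from the 9 pairs that mix treatments. The dTAG47 pairs shared 609 regions (libraries 1 and 3), 292 (2 and 3) and 204 (1 and 2). The DMSO pairs shared 1343 regions (1 and 2), 623 (1 and 3) and 174 (2 and 3). The mixed pairs shared 90 to 2073 regions, with a median of 393, and the pair with most was dTAG47 library 3 with DMSO library 1. Both treatments' pairs lie inside the range of the mixed pairs. The lowest value of that range joined the shortest list of each treatment, and the highest joined the longest list of each. The range thus moves with list length, and an effect of treatment on the sharing was not tested. Among regions with a peak in exactly 3 libraries, 129 (2.32%) were those of the 3 dTAG47 libraries and 229 (4.12%) those of the 3 DMSO libraries. The 18 mixed triples held 22 to 988 regions each, with a median of 187.5.

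**Figure D1:**
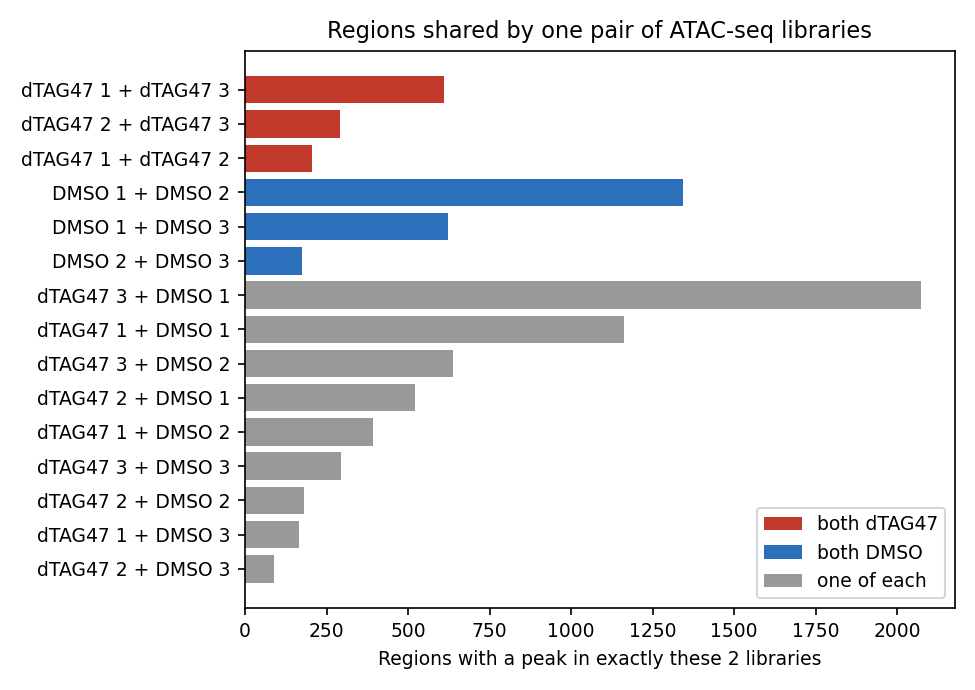
Number of merged regions with a peak in exactly 2 of the 6 ATAC-seq libraries, 1 bar for each pair of libraries (x axis, regions). The pairs within dTAG47 hold 204 to 609 regions and those within DMSO 174 to 1343, and the 9 mixed pairs span 90 to 2073.

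Single libraries moved the membership by more than 1.5 times. The rule still asked for 2 libraries of a treatment when 1 was left out. It thus became stricter for the treatment that lost a library and looser for the other. Without DMSO library 1, the longest list, 3272 regions would be dTAG47-only and 409 DMSO-only, in place of 1234 and 2369. Without DMSO library 2 the counts would be 1898 dTAG47-only and 853 DMSO-only. Without dTAG47 library 1, 2 or 3 the dTAG47-only count would be 425, 737 or 337. Without DMSO library 3 the DMSO-only count would be 1575, and without dTAG47 library 1 or 3 it would be 3573 or 4350. With only peaks of score 30 or more the DMSO-only count would be 1536.

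Just outside the rule lay regions with 1 further or 1 fewer library. A peak in 1 dTAG47 library and no other was found for 13969 regions, and a peak in 2 dTAG47 libraries and 1 DMSO library for 2325. A peak in 1 DMSO library and no other was found for 22255 regions, and a peak in 2 DMSO libraries and 1 dTAG47 library for 2869. The median score was 26 for regions of 1 dTAG47 library and 26 for those of 1 DMSO library. It was 35 for regions of 2 dTAG47 libraries alone and 35 for those of 2 DMSO libraries alone. With 1 library of the other treatment added, the medians were 43 over the dTAG47 peaks of the 2 + 1 regions and 44 over the DMSO peaks of the regions with 2 DMSO libraries and 1 dTAG47 library.

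The score of a peak, as the authors deposited it, is 10 times the −log10 q value of the caller, and it was at least 13 in every ATAC-seq list. All values from here to the gene results are for the 1198 dTAG47-only and 2252 DMSO-only regions on the numbered chromosomes and X, of 74687 regions. The median score of dTAG47-only regions was 36, 33 and 41 in dTAG47 libraries 1, 2 and 3. The median of DMSO-only regions was 40, 35 and 33 in DMSO libraries 1, 2 and 3. Regions with a peak in all 6 libraries (16538) had medians of 175, 120 and 196 in the dTAG47 libraries and 240, 171 and 96 in the DMSO libraries. One-treatment regions were thus low in every library. The lower or lowest score was under 30 in 49.8% of dTAG47-only regions, 57.5% of DMSO-only regions and 7.75% of regions in all 6. It was 100 or more in 30 dTAG47-only regions (2.50%), 22 DMSO-only regions (0.977%) and 41.4% of regions in all 6.

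**Figure D2:**
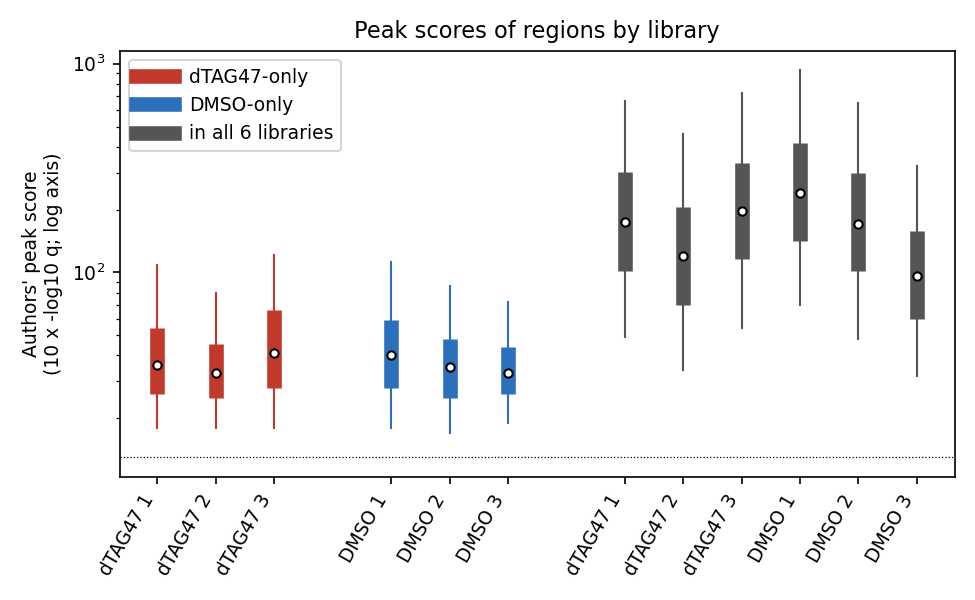
Authors' peak score (y axis, 10 times −log10 q, log scale) of dTAG47-only regions, DMSO-only regions and regions with a peak in all 6 libraries, by library. Circles are medians, thick bars the middle 50% and thin lines the 5th to 95th percentiles. The dotted line marks the lowest score in the lists, 13. Members' medians are 33 to 41 in dTAG47 and 33 to 40 in DMSO, against 96 to 240 for the regions in all 6 libraries.

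A handful of dTAG47-only regions had scores far above the rest, and they were short. The highest was chr5:93905088-93905242, 155 bases in an intron of KIAA0825, with scores of 5347 in dTAG47 library 1 and 4565 in library 3 and no peak in library 2. The annotation places MTND6P3, a nuclear copy of a mitochondrial gene, at this site. In its window 129 of 200 bases lay in 32-base stretches identical to the mitochondrial genome, the capitals in the printed sequence. The next was chr21:10492885-10493041, outside protein-coding genes with TPTE nearest, with scores of 4866 in library 1 and 3423 in library 3. Of its window's 32-base stretches, 46.2% occur in the mitochondrial genome. No other dTAG47-only region and no DMSO-only region held such a stretch (2 of 1198 and 0 of 2252), and 13 of the regions in all 6 libraries did. The 3rd was chr10:103124586-103124762 in an intron of BTRC, at RNU2-59P, a pseudogene of a small nuclear RNA, with scores of 690 in library 1 and 725 in library 3. These 3 regions lacked a peak in dTAG47 library 2, and they were looked at after their scores were seen.

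Of the DMSO-only regions found in all 3 libraries, the 2 with the highest scores lay on chromosome 2, close to an assembly gap. The region chr2:89875096-89876027 had scores of 1146, 1085 and 748 in DMSO libraries 1, 2 and 3, and chr2:89853123-89853356 had 820, 913 and 412. The nearest protein-coding gene in the annotation was RP11-685N3.1, 662835 and 685157 bases away. The first region is 45126 bases from that gap, and 47.3% of the 32-base stretches in its window occur more than once in the genome. That window held GGAATG 20 times and the window of the second region held it 9 times. The letters match the unit of human satellite DNA, in which GGAAT is repeated in tandem, and the printed sequence shows the repeats as capitals. GGAATG was searched as the TEAD motif, and 11.5% of all regions held it at least once. Among DMSO-only regions found in 2 libraries, the highest was chr11:51572018-51572215, 22089 bases from an assembly gap, with scores of 973 and 675 in DMSO libraries 1 and 2.

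Away from repeats, the strongest regions found in all 3 libraries were few. Among dTAG47-only regions these included chr2:141344053-141344256 in an intron of LRP1B, a lipoprotein-receptor family gene, with scores of 317, 173 and 407. Another was chr11:92967549-92968035, 36635 bases from the start of SLC36A4, an amino acid transporter, with scores of 157, 128 and 172 and 1 AP-1 match (TGANTCA). A further one, chr9:8485846-8486383, had its midpoint in an exon of PTPRD, a receptor tyrosine phosphatase, with scores of 213, 128 and 121. Among DMSO-only regions, chr1:219491090-219491390, 144020 bases from the start of its nearest gene LYPLAL1, had scores of 133, 191 and 160. The region chrX:16141258-16141652 lay 233 bases before the start of GRPR, the receptor for gastrin-releasing peptide, with scores of 201, 116 and 86. The region chr12:2143834-2144492, in an intron of the calcium channel gene CACNA1C, had scores of 94, 93 and 71 and 1 E-box.

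The mRNA of the genes nearest to these strong regions was low or did not pass the test. LRP1B was at 0, 0 and 0.071 CPM in dTAG47 and at 0 in all 3 DMSO libraries, and GRPR had the same values. SLC36A4 had 32.2, 30.5 and 36.6 CPM in dTAG47 and 28.4, 33.5 and 29.7 CPM in DMSO, and the groups overlapped. LYPLAL1 had 14.9, 15.2 and 17.6 CPM in dTAG47 and 14.2, 14.8 and 14.5 CPM in DMSO, with a log2 change of 0.13 ± 0.10 (SE) and adjusted p = 0.473 in edgeR's quasi-likelihood test. TBC1D4, which controls traffic of a glucose transporter to the cell surface, was an exception. Its dTAG47-only region chr13:75931977-75932309 had scores of 91, 101 and 128. Its mRNA was 46.1, 49.1 and 51.1 CPM in dTAG47 and 72.6, 81.1 and 76.4 CPM in DMSO, with every dTAG47 library lower. The log2 change was −0.65 ± 0.15 (SE), with adjusted p = 0.0191 in edgeR's quasi-likelihood test, and the call was lost under 6 alternative settings.

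Members were mostly far from gene starts. A midpoint within 1000 bases of a protein-coding start site was found for 142 dTAG47-only regions (11.9%) and 161 DMSO-only regions (7.15%), against 59.9% of regions in all 6 libraries and 19.9% of all regions. The median distance to the nearest start site was 20772.5 bases for dTAG47-only and 31926.5 bases for DMSO-only regions, against 278 bases for regions in all 6 libraries. Introns held 41.7% of dTAG47-only and 44.3% of DMSO-only midpoints, and 46.5% and 47.4% lay outside protein-coding genes. Exons held 11.9% and 8.30%. More than 100000 bases from any start site were 18.9% of dTAG47-only and 24.6% of DMSO-only regions. On this scale the members resembled regions of 1 library more than those of all 6: the promoter share was 7.44% for regions of 1 dTAG47 library and 4.89% for those of 1 DMSO library.

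The dTAG47-only regions were shorter and richer in G and C than the DMSO-only regions. The median width was 396 bases for dTAG47-only and 481 bases for DMSO-only regions, and 1163 bases for regions in all 6. The median GC content of the central 200 bases was 54% for dTAG47-only and 49% for DMSO-only regions, and 64% for regions in all 6. The same order was present in regions that no other library shared. Their median width was 223 bases for those of 1 dTAG47 library and 273 bases for those of 1 DMSO library. Their median GC was 51%, 52% and 51% in dTAG47 libraries 1, 2 and 3 and 47%, 50.5% and 50% in DMSO libraries 1, 2 and 3. The library thus moves with the GC content, and its part in the difference between the classes was not tested. Regions found in all 3 libraries had higher GC than those in 2, at 55.5% against 53.5% for dTAG47-only and 51.5% against 49% for DMSO-only. The promoter share of the 3-library members was 17.6% (22 of 125) for dTAG47-only and 10.4% (22 of 211) for DMSO-only regions.

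**Figure D3:**
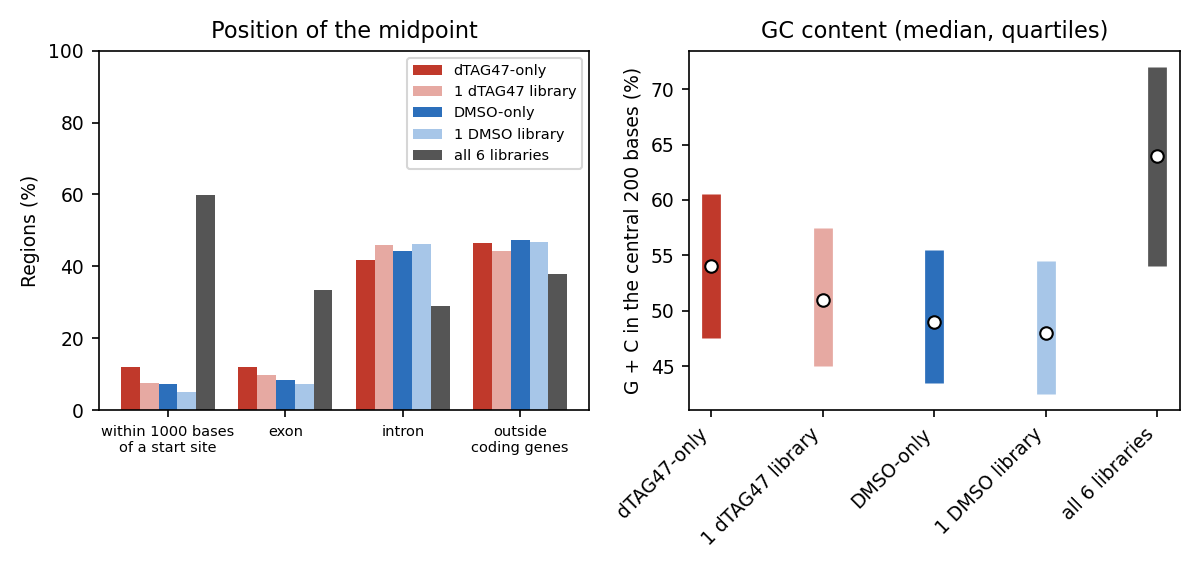
Left, share of regions (y axis, %) whose midpoint lay within 1000 bases of a protein-coding start site, in an exon, in an intron or outside protein-coding genes, for dTAG47-only and DMSO-only regions, regions of 1 library of either treatment and regions in all 6 libraries. Right, GC content of the central 200 bases (y axis, %), with circles for medians and bars for quartiles. The promoter share is 11.9% for dTAG47-only and 7.15% for DMSO-only regions, against 59.9% for regions in all 6 libraries, and the GC medians are 54%, 49% and 64%.

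Sequence that occurs more than once in the genome filled at least 50% of the window in 113 dTAG47-only regions (9.43%) and 297 DMSO-only regions (13.2%), against 5.97% of regions in all 6 libraries and 8.90% of all regions. Reads from such sequence can be placed at several sites. Within the dTAG47-only class the share was 16.8% for the pair of libraries 1 and 2 and 4.80% for regions in all 3. Within the DMSO-only class it was 11.1% for libraries 1 and 2 and 16.1% for regions in all 3. A peak of the other treatment lay within 500 bases of 154 dTAG47-only regions (12.9%) and 171 DMSO-only regions (7.59%). The dTAG47-only region 9585 bases before MEOX1 lay 44 bases from a DMSO peak, and the DMSO-only region in an intron of PRKCA lay 23 bases from a dTAG47 peak.

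By chromosome, dTAG47-only regions made up 0.854% (chromosome 15) to 2.66% (chromosome 16) of a chromosome's regions, and DMSO-only regions 2.22% (chromosome 16) to 4.06% (chromosome 18). Chromosome 16 was the only one with more dTAG47-only than DMSO-only regions, 67 and 56. On X there were 10 dTAG47-only and 37 DMSO-only regions.

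Motif matches in the 200-base windows were near the share in all regions for AP-1, TEAD, RUNX and SOX. For the E-box and GATA the classes lay on either side of that share. The E-box was found in 49 dTAG47-only windows (4.09%) and 57 DMSO-only windows (2.53%), and in 3.35% of all windows. AP-1 was found in 6.26% of dTAG47-only, 6.79% of DMSO-only and 5.73% of all windows, TEAD in 11.9%, 11.5% and 11.5%, RUNX in 13.2%, 13.2% and 12%, and SOX in 13.2%, 13.8% and 12.4%. The GATA motif, spelled AGATAA, was found in 6.18%, 8.93% and 7.43%, in the same order of classes. The motifs of GC-rich promoters were less frequent in members than in all regions. The GC-box, bound by SP and KLF factors, was found in 14.6% of dTAG47-only, 9.37% of DMSO-only and 17.8% of all windows, and in 44.3% of windows in all 6 libraries. ETS was found in 3.92%, 2.80% and 5.47%, and in 13.7% of windows in all 6 libraries. GC content moves with these shares, and its part in them was not tested.

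The genes for the factors that bind these motifs mostly did not pass the RNA test, with 3 to 8 tested per motif. Passing were 2 of 4 E-box, 1 of 7 ETS, 1 of 3 RUNX and 1 of 4 GC-box genes. Of all genes tested 8.71% passed, and a difference from this share was not tested. Of 4 E-box factors, MAX, the partner of MYC, and MXI1, a repressor that pairs with MAX, were lower in dTAG47. MAX had 42.6, 40.5 and 42.8 CPM in dTAG47 and 50.2, 52.4 and 52.1 CPM in DMSO, with a log2 change of −0.30 ± 0.07 (SE) and adjusted p = 0.0216 in edgeR's quasi-likelihood test. MXI1 had a log2 change of −0.54 ± 0.13 (SE), with adjusted p = 0.0242 in the same edgeR test. Of 4 GC-box factors, KLF15 was lower, with 4.00, 3.42 and 3.73 CPM in dTAG47 and 6.91, 7.49 and 7.09 CPM in DMSO, and adjusted p = 0.0017 by edgeR. RUNX3 was lower at a low level, 0.483, 0.476 and 0.284 CPM in dTAG47 and 1.12, 0.82 and 1.00 CPM in DMSO, with adjusted p = 0.0295 by edgeR. Of 7 ETS factors, ETV5 was higher, with a log2 change of 0.40 ± 0.10 (SE) and adjusted p = 0.0344 by edgeR. None of the 8 AP-1, 4 TEAD, 3 tested GATA and 3 tested SOX genes passed. The AP-1 gene FOSL1 came nearest, with 38.8, 38.3 and 38.7 CPM in dTAG47 and 49.8, 50.6 and 53.9 CPM in DMSO and adjusted p = 0.0591 by edgeR. The calls of ETV5, MAX, MXI1 and RUNX3 were lost under 11, 6, 5 and 5 alternative settings.

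MYC binding, read from the ChIP-seq peak lists of DMSO-treated cells, was rare in both classes. A MYC peak of either DMSO library overlapped 7 of 1198 dTAG47-only regions (0.584%) and 11 of 2252 DMSO-only regions (0.488%). It overlapped 19.1% of regions in all 6 ATAC-seq libraries and 4.83% of all regions. Regions of 1 library were as low, at 0.374% for 1 dTAG47 library and 0.235% for 1 DMSO library. Peaks of both DMSO ChIP-seq libraries overlapped 0 dTAG47-only regions and 1 DMSO-only region. A peak of any of the 3 dTAG47 ChIP-seq libraries overlapped 0 dTAG47-only regions and 1 DMSO-only region, on X. That region lay 15301 bases from an assembly gap, and 100% of the 32-base stretches in its window were multi-copy. Its nearest gene, SPIN4, was 873898 bases away. Among members at promoters, 1 of 142 dTAG47-only regions (0.704%) and 7 of 161 DMSO-only regions (4.35%) overlapped a MYC peak of DMSO cells. The share was 27.1% for promoter regions in all 6 libraries, 2.36% for those of 1 dTAG47 library and 1.60% for those of 1 DMSO library. ATAC-seq was made at 24 h and ChIP-seq at 4 h. The 2 DMSO ChIP-seq lists differed in reach, since library 1 overlapped 4.45% and library 3 overlapped 1.74% of all regions.

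The 7 dTAG47-only regions with a MYC peak lay near SAMD11, FAM174B, KDM6B, SEPTIN9, SRC, TRIO and FAM110B. That near SAMD11 had its midpoint in an exon of NOC2L. Those near FAM174B, SRC and KDM6B lay 280, 418 and 461 bases from a DMSO ATAC-seq peak, and the others 983 to 2457 bases. The region chr5:14264823-14265009 in an intron of TRIO, a guanine nucleotide exchange factor, had ATAC scores of 180 and 107 in dTAG47 libraries 1 and 3 and a MYC peak of score 87. Its window held 1 E-box, 1 GC-box and 1 SOX match, shown as capitals above. TRIO mRNA was 476, 470 and 467 CPM in dTAG47 and 446, 413 and 443 CPM in DMSO. The groups did not overlap, but the log2 change of 0.12 ± 0.06 (SE) did not pass, with adjusted p = 0.301 in edgeR's quasi-likelihood test. The region chr20:36034750-36035186, 22415 bases past the nearest start of SRC, a tyrosine kinase, had scores of 47 and 24, a MYC peak of score 85 and 2 E-boxes. SRC mRNA was 48.3, 52.0 and 46.1 CPM in dTAG47 and 54.1, 48.0 and 52.4 CPM in DMSO, and the groups overlapped. At SEPTIN9, a cytoskeletal septin, the region lay 61 bases before a start site, and the mRNA of 580, 558 and 540 CPM in dTAG47 overlapped the 579, 532 and 597 CPM in DMSO.

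The nearest genes of the 11 DMSO-only regions with a MYC peak were ADGRB2, SKIDA1, PIGL, RPL36, TNPO2, NDST1, F13A1, TRERF1, TNRC18, AGFG2 and SPIN4. SPIN4 was 873898 bases from its region. The regions of ADGRB2, NDST1, TRERF1 and SPIN4 lay 324, 324, 311 and 282 bases from a dTAG47 ATAC-seq peak, and the others 967 to 17545 bases. The region at TNPO2, a nuclear import receptor, chr19:12833454-12834866, had ATAC scores of 61, 43 and 35 and MYC peaks in both DMSO libraries, of scores 84 and 76. TNPO2 mRNA was 167, 167 and 158 CPM in dTAG47 and 190, 172 and 180 CPM in DMSO. The groups did not overlap, and the log2 change of −0.14 ± 0.07 (SE) did not pass, with adjusted p = 0.267 in edgeR's quasi-likelihood test. PIGL, an enzyme of glycolipid anchor synthesis, had a region 134 bases past its start and 15.9, 16.7 and 16 CPM in dTAG47, against 17.2, 17.4 and 18.2 CPM in DMSO, with adjusted p = 0.478 by edgeR. The region at the start of NDST1, a heparan sulfate enzyme, overlapped a peak of ChIP-seq library 3 alone.

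The nearest genes' mRNA changed about as often as that of all genes. Of 13401 genes tested in DTMYC cells, 1167 (8.71%) passed at an adjusted p under 0.05 in edgeR's quasi-likelihood test, 572 higher (4.27%) and 595 lower (4.44%) in dTAG47. Of 1098 genes nearest to a dTAG47-only region, 1017 were found in the RNA table and 799 passed the filter on low counts. Of these 799 genes, 38 were higher and 32 lower in dTAG47 (8.76% in either direction). Of 1836 genes nearest to a DMSO-only region, 1671 were found and 1301 tested. Of these 1301 genes, 64 were higher and 44 lower in dTAG47 (8.30%). Genes nearest to regions in all 6 libraries were called in 9.15%. The median log2 change was 0.05 for genes nearest to dTAG47-only regions and 0.08 for those nearest to DMSO-only regions, against 0.03 for all genes tested. The shares called in either direction lie near the background. By direction, 4.76% of the genes at dTAG47-only regions were higher and 4.01% lower, and 4.92% of those at DMSO-only regions were higher and 3.38% lower. Among the called genes at DMSO-only regions higher ones thus outnumbered lower ones, while among all genes lower ones were slightly more numerous. This difference in direction was not tested. Of the genes, 221 were nearest to a region of each class, 21.7% of the dTAG47-only and 13.2% of the DMSO-only genes.

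The share at promoters and at stronger regions was also near the background or rested on few genes. With the region within 1000 bases of the start, 5 genes were higher and 7 lower of 106 at dTAG47-only regions (11.3%), and 2 were higher and 3 lower of 107 at DMSO-only regions (4.67%). Within 50000 bases, 59 of 591 genes (9.98%) were called at dTAG47-only and 89 of 946 (9.41%) at DMSO-only regions. Near regions found in all 3 libraries, 9 of 95 genes (9.47%) were called at dTAG47-only and 8 of 151 (5.30%) at DMSO-only regions. Near regions with every score at 30 or more, 28 of 395 genes (7.09%) were called at dTAG47-only and 46 of 594 (7.74%) at DMSO-only regions. The number of calls depended on the libraries in the fit. The main fit shares its estimate of the spread over all 12, and the part of this in the number of calls was not tested. With the 6 DTMYC libraries alone, 36.5% of 12594 genes were called, and 269 of 729 genes at dTAG47-only (36.9%) and 486 of 1219 at DMSO-only regions (39.9%). In that fit 138 genes were higher and 131 lower at dTAG47-only regions, 289 higher and 197 lower at DMSO-only regions, and 2084 higher and 2509 lower among all genes. Without parental DMSO replicate 3 the calls were 28.6% of genes at dTAG47-only and 31.3% at DMSO-only regions, against 29.2% of all genes. Of those calls, 117 were higher and 113 lower at dTAG47-only regions, 236 higher and 172 lower at DMSO-only regions, and 1711 higher and 2240 lower among all genes. Without 1 of the 6 DTMYC libraries they were 2.85% to 4.46% at dTAG47-only and 2.14% to 3.74% at DMSO-only regions, against 2.42% to 4.68% of all genes.

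**Figure D4:**
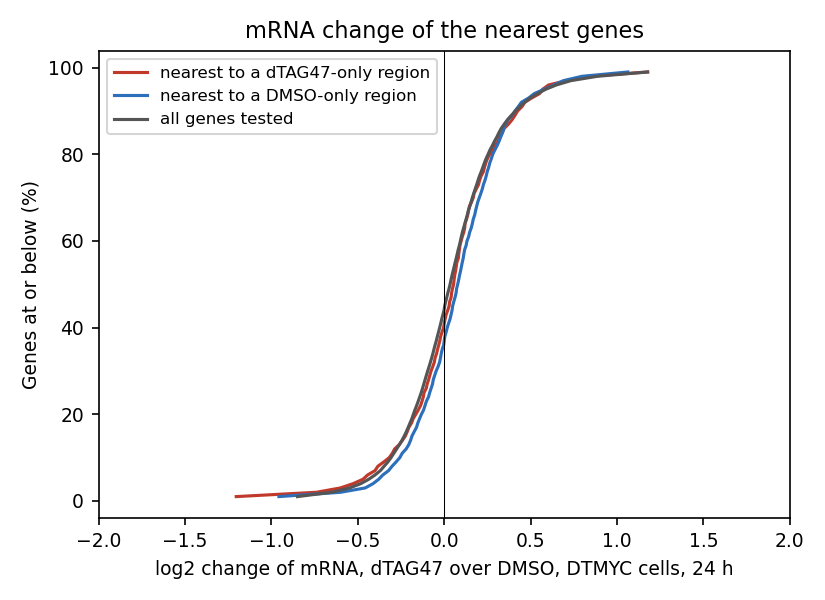
Cumulative share of genes (y axis, %) by log2 change of mRNA, dTAG47 over DMSO, in DTMYC cells at 24 h (x axis). Lines show genes nearest to a dTAG47-only region (799 tested), genes nearest to a DMSO-only region (1301) and all 13401 genes tested. The medians are 0.05, 0.08 and 0.03, and the DMSO-only line lies slightly to the right of the others in its middle.

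In parental cells, which lack the tagged MYC, dTAG47 against DMSO changed 17 of 13401 genes (0.127%) by edgeR, 14 higher (0.104%) and 3 lower (0.0224%). These included 2 of the 799 genes nearest to dTAG47-only regions, 1 higher and 1 lower. They also included 5 of the 1301 nearest to DMSO-only regions, 4 higher and 1 lower. The response differed between DTMYC and parental cells, by the interaction test, for 159 genes (1.19%), with the DTMYC response above the parental one for 0.597% of genes and below it for 0.59%. Near dTAG47-only regions 3 genes lay above and 6 below, and near DMSO-only regions 3 lay above and 8 below. Without parental DMSO replicate 3 the parental test called 2718 genes and the interaction test 2417, and without any 1 parental dTAG47 replicate they called 0 and 5 to 14. Nascent transcription at 4 h, read as PRO-seq counts in gene bodies, passed the edgeR test for 0 of 13397 genes (0%). Of these, 1298 had an unadjusted p under 0.05 (9.69%). With a replicate block the edgeR test called 4360 of the 13397 genes, and the counts near regions below are without that block. DESeq2 called 66 genes (0.627% of 10526), 5 higher and 61 lower. Near dTAG47-only regions 0 of 724 genes passed in edgeR, with 80 at an unadjusted p under 0.05 (11.0%). DESeq2 called 4 of 572 genes there (0.699%), all lower. Near DMSO-only regions 0 of 1200 genes passed in edgeR, with 118 at an unadjusted p under 0.05 (9.83%). DESeq2 called 2 of 980 genes there (0.204%), both lower.

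Among the genes near dTAG47-only regions, those called higher included PDGFB, a growth factor subunit, MEOX1, a homeobox factor, and H6PD, an enzyme of the pentose phosphate pathway in the endoplasmic reticulum. PDGFB had 36.3, 34.6 and 31.2 CPM in dTAG47 and 20.3, 19.2 and 19.1 CPM in DMSO, with no overlap. Its log2 change was 0.80 ± 0.10 (SE), with adjusted p = 0.00115 in edgeR's quasi-likelihood test. Its region had scores of 22 and 25 in dTAG47 libraries 2 and 3. PRO-seq at 4 h gave PDGFB a log2 change of 0.17 ± 0.25 (SE). MEOX1 had 170, 167 and 158 CPM in dTAG47 and 116, 118 and 121 CPM in DMSO, and its region had scores of 25 and 19. H6PD had 110, 107 and 105 CPM in dTAG47 and 71.8, 72.6 and 70.9 CPM in DMSO. The log2 changes of MEOX1 and H6PD were 0.48 ± 0.07 and 0.58 ± 0.09 (SE). KIAA0513, the F-box gene FBXL2 and P4HA2, a collagen prolyl hydroxylase, were also higher, with log2 changes of 0.56, 0.56 and 0.54. The region nearest to P4HA2 had its midpoint in an exon of another gene, PDLIM4.

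The genes near dTAG47-only regions that were called lower were led by GRPEL1. It encodes a co-chaperone of protein import into mitochondria and had 79.5, 82.0 and 83.5 CPM in dTAG47 and 120, 117 and 122 CPM in DMSO. Its log2 change was −0.55 ± 0.06 (SE), with adjusted p = 0.000971 in edgeR's quasi-likelihood test. The region chr4:7083706-7083953 lay 14018 bases before the start, with scores of 31 and 60 in dTAG47 libraries 1 and 2. SLC7A5, a transporter of large neutral amino acids, had 459, 440 and 407 CPM in dTAG47 and 652, 622 and 654 CPM in DMSO, a log2 change of −0.56 ± 0.09 (SE). CBS, which makes cystathionine from homocysteine, and DHODH, a mitochondrial enzyme of pyrimidine synthesis, had log2 changes of −0.46 and −0.52. PODXL2, a sialomucin, and NHERF2, a scaffold of membrane transporters, had log2 changes of −0.75 and −0.67. In all 6 genes, which were named for being called lower, the dTAG47 libraries lay below the DMSO libraries. At 4 h the PRO-seq log2 changes were −0.57 ± 0.10 for GRPEL1, −0.48 ± 0.09 for SLC7A5 and −0.38 ± 0.13 (SE) for CBS. They were −0.73 ± 0.15 for DHODH and −0.58 ± 0.20 (SE) for PODXL2. None of these passed the adjusted threshold in edgeR without a replicate block.

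Near DMSO-only regions, the genes called higher in dTAG47 were led by PARVA. It encodes an adaptor between integrins and actin and had 58.0, 59.6 and 57.6 CPM in dTAG47 and 39.5, 39.5 and 41.6 CPM in DMSO. Its log2 change was 0.54 ± 0.07 (SE), with adjusted p = 0.00142 in edgeR's quasi-likelihood test, and its intronic region had scores of 43 and 25 in DMSO libraries 2 and 3. CD82, a tetraspanin, had 14.4, 12.7 and 14.1 CPM in dTAG47 and 7.13, 7.18 and 7.75 CPM in DMSO, a log2 change of 0.90 ± 0.15 (SE). PRKCA, a protein kinase C, had 323, 323 and 326 CPM in dTAG47 and 231, 232 and 237 CPM in DMSO. It was also higher in parental cells, with log2 changes of 0.47 ± 0.07 in DTMYC and 0.40 in parental cells and adjusted p = 0.049 for the parental cells by edgeR. PLEKHA2, a phosphoinositide-binding protein, MYADM, a membrane protein, and GDPD5, a phosphodiesterase, had log2 changes of 0.75, 0.57 and 0.59. In the window of the PLEKHA2 region 76.9% of the 32-base stretches were multi-copy.

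The genes near DMSO-only regions that were called lower in dTAG47 were led by ACTL8, an actin-like gene. It had 1.00, 1.04 and 1.03 CPM in dTAG47 and 3.18, 3.18 and 4.25 CPM in DMSO. The log2 change was −1.79 ± 0.17 (SE), with adjusted p = 0.000278 in edgeR's quasi-likelihood test, and the region lay 97141 bases from the start. TBC1D30, a Rab GTPase-activating protein, was the one named here whose region had a peak in all 3 DMSO libraries, with scores of 55, 51 and 96 at chr12:65195182-65196457. TBC1D30 had 3.21, 2.62 and 3.33 CPM in dTAG47 and 5.58, 5.23 and 5.97 CPM in DMSO, with a log2 change of −0.88 ± 0.12 (SE) and adjusted p = 0.00172 by edgeR. Its window held none of the 8 motifs. KLRG2, a lectin-like receptor gene, had 7.21, 7.64 and 7.27 CPM in dTAG47 and 12.8, 12.1 and 14.1 CPM in DMSO. Its parental response was a log2 change of −1.37, with adjusted p = 0.0532 by edgeR. TRIM14, a regulator of antiviral signalling, UCK2, a uridine-cytidine kinase, and NKAIN1, a partner of the sodium pump, had log2 changes of −0.60, −0.41 and −0.65. The region nearest to TRIM14 had its midpoint in an intron of another gene, CORO2A. In all 6 genes, which were named for being called lower, the dTAG47 libraries lay below the DMSO libraries.

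**Figure D5:**
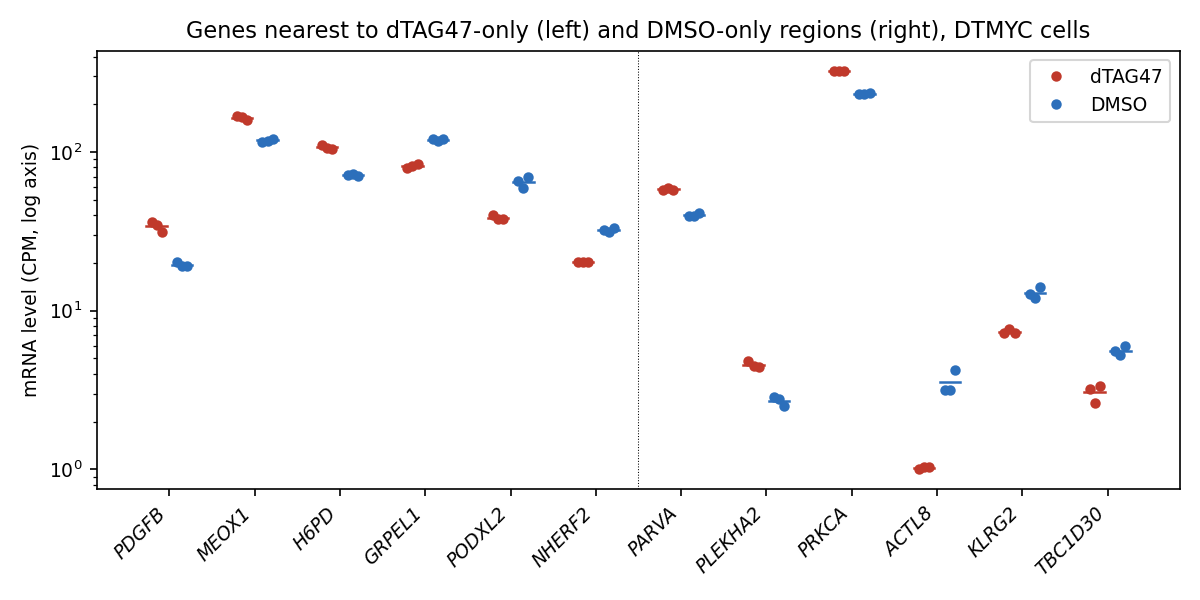
mRNA level (y axis, CPM, log scale) of 12 named genes in DTMYC cells, nearest to dTAG47-only regions (left of the dotted line) or DMSO-only regions (right). Points are the 3 libraries of each treatment and lines their means. Each class holds genes that are higher (PDGFB, PARVA) and genes that are lower (GRPEL1, ACTL8) in dTAG47.

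At the promoter regions named for their scores the mRNA did not pass the test, whereas PDGFB and NHERF2, above, have regions within 1000 bases of a start and passed. The dTAG47-only regions with the highest scores within 1000 bases of a start were those of CABLES2, a cell cycle gene, B4GALT4, a galactosyltransferase, CBLC, a ubiquitin ligase, and CACNG7, a calcium channel subunit. CABLES2 had 21.7, 22.2 and 18.6 CPM in dTAG47 and 16.5, 17.3 and 17.1 CPM in DMSO. CBLC had 3.62, 3.57 and 3.12 CPM in dTAG47 and 2.85, 2.05 and 2.09 CPM in DMSO. In both the libraries of the treatments did not overlap, and the log2 changes of 0.30 ± 0.14 and 0.56 ± 0.18 (SE) had adjusted p = 0.212 and 0.0696 by edgeR. Beside GRPR, the DMSO-only regions were those of ELAVL4, a neuronal RNA-binding protein, BMP4, a secreted growth factor, and DMRTC1. ELAVL4 and DMRTC1 were at 0 CPM in all 6 DTMYC libraries. BMP4 had 384, 368 and 355 CPM in dTAG47 and 334, 317 and 348 CPM in DMSO, higher in each dTAG47 library, with adjusted p = 0.249 by edgeR.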

How the data were processed

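The samples were G401 cells in culture. Members and gene lists were chosen with earlier results of these data known. Per the submitters' processing notes, the build was hg19, and MACS2, Bowtie2, cutadapt, DiffBind, STAR, featureCounts and DESeq2 were used, with no version or role given there. The authors deposited peak lists per library with a score per peak, and read counts per gene for RNA-seq and PRO-seq gene bodies.

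Here, overlapping ATAC-seq peaks were merged, and each region was placed by its midpoint in GENCODE 44 on GRCh37. Motifs, GC content and 32-base stretches were read in the central 200 bases. Each region was joined to the nearest protein-coding start site. Counts were tested with edgeR 4.0.16 (filterByExpr, TMM, quasi-likelihood F-test, two-sided, Benjamini-Hochberg over all genes, threshold 0.05) in R 4.3.3, with all 12 RNA-seq libraries in 1 fit. DESeq2 1.42.0 was an alternative. The test was checked on simulated counts. CPM are counts scaled to a common library total.

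For each class the text names up to 8 regions in all 3 libraries, 4 at promoters and 4 with a DMSO MYC peak, by score, and up to 6 called genes per direction within 100000 bases, by adjusted p. A further group was named after its scores were seen. ChIP-seq labels name MYC as the antibody, and IgG libraries were not used here. Other groupings of the libraries were not tested against chance. Depth of the peak lists is unknown, so no interval is given for them.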

Additional observations from a re-analysis of the deposited data

Results flagged for a closer look

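For 10 of the named genes the mRNA response to dTAG47 differed between DTMYC and parental cells, by the interaction test of edgeR at an adjusted p under 0.05. Values are the log2 response in DTMYC cells minus that in parental cells. Near dTAG47-only regions they were 0.79 for PDGFB, 0.48 for MEOX1, −0.46 for GRPEL1 and −0.59 for SLC7A5. Near DMSO-only regions they were 1.03 for PLEKHA2, 1.00 for CD82, −1.52 for ACTL8, −0.73 for TBC1D30 and −0.70 for TRIM14. For FOSL1, a factor that binds the AP-1 motif, the value was −0.85, although its change in DTMYC cells alone did not pass. Genes near regions of each class thus differed in both directions. Of these genes, all but FOSL1 were named for their adjusted p in the DTMYC test, whose change is part of the interaction test. Over all genes tested the interaction test called 159 of 13401 (1.19%). It called 9 of 799 genes nearest to dTAG47-only regions (1.13%) and 11 of 1301 nearest to DMSO-only regions (0.846%).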

How the results depend on the processing

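Merging peaks within 100 bases (1254 dTAG47-only and 2414 DMSO-only regions) left both counts within 1.5 times of 1234 and 2369. Peaks in all 3 libraries left 129 and 229. A minimum score of 30 left 948 and 1536, and 655 and 1080 when peaks of any score in the other treatment also barred a region, a setting chosen after seeing the data. Leaving out 1 library, with 2 libraries of a treatment still required, gave 337 to 3272 dTAG47-only and 409 to 4350 DMSO-only regions. Genes called in DTMYC RNA-seq numbered 1167, or 4593 in the fit of the 6 DTMYC libraries and 329 to 3951 without 1 library. Called nearest genes numbered 70 and 108, or 269 and 486 in that fit, and 23 to 230 and 28 to 408 without 1 library. Parental calls numbered 17, or 7 with RLE factors and 0 to 2718 without 1 library. Interaction calls numbered 159, or 63 with RLE factors, 102 without a filter and 5 to 2417 without 1 library. PRO-seq calls numbered 0, or 2 without a filter, 66 with DESeq2 and 5 to 44 without 1 library. Of the RNA-seq counts without 1 library, the highest were those without parental DMSO replicate 3. The causes were not tested. Replicate numbers are not stated to pair samples, and same-numbered DTMYC RNA-seq libraries deviated together with correlations of 0.09, −0.01 and −0.05. With a replicate block the calls were 1140 in DTMYC, 5 in parental, 79 for the interaction, 4360 in PRO-seq and 67 and 107 for nearest genes. The correlation in PRO-seq, 0.64, is from 2 pairs and is the same for both by construction. No named gene that was called in the main fit changed direction. Read depth, which sets how many peaks pass the caller, is unknown for the ATAC-seq lists.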
